A study of Mus musculus with 3 samples.

Results

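Caveolins, cavins and the diaphragm gene Plvap were examined in the endothelium of adult mouse glomeruli, the tufts of capillaries in which the kidney filters blood. The group holds 7 genes of the 19938 named on the array, Cav1, Cav2, Cav3, Cavin1, Cavin2, Cavin3 and Plvap. A gene entered when a probe set named it alone, and each of the 7 was read by 1 of the 21789 such probe sets. The cells came from adult Tie2-GFP mice carrying Tg(TIE2GFP)287Sato, of unknown sex and of a mixed strain that is mostly CD-1. Green fluorescent protein is driven in these mice by the Tie2 (Tek) promoter, that of an angiopoietin receptor gene, which some blood cells can also use. The cortex was digested with collagenase, glomeruli were caught on a sieve and dissociated with trypsin, and fluorescent cells were sorted. There were 3 arrays, replicates 1, 3 and 5, each with RNA of 1 kidney that was not pooled. All were untreated and of 1 group, so the data hold no contrast of conditions. The study describes its samples as biologically independent. The labels do not say whether the kidneys came from different mice, so a p-value here reflects no more than how these arrays vary, and that variation may be technical.

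Caveolae are small flask-shaped pits of the plasma membrane, and endothelium is among the tissues richest in them. Caveolins form their inner coat. Cavins assemble around the caveolins from the cytosol and give the pit its shape. Caveolin 3 and cavin 4 are the forms known from muscle. Plvap encodes the fibre protein that spans the neck of endothelial caveolae and closes fenestrae, the round pores of capillaries, with a thin diaphragm. Fenestrae of the adult glomerulus are known largely to lack this diaphragm, while those of capillaries around the tubules carry it.

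The caveolin genes are shown first by the sequence before their start, because they are close relatives and yet hold both high and very low levels here. Cav2 and Cav1 are direct neighbours on chromosome 6, with 0 annotated genes between them, and Cav3 lies elsewhere on it. The windows hold 250 bases before the annotated start, 5′ to 3′ on the + strand, from RefSeq on GRCm38.p6, at chr6:17306085-17306334 for Cav1, chr6:17280935-17281184 for Cav2 and chr6:112459255-112459504 for Cav3. For Cav1, which has 2 starts in the table, the first was taken. Capitals mark matches on either strand to the GC box GGGCGG, the CCAAT box CCAAT, the TATA box TATAAA and the ETS core TTCCTG, and no matches overlap.
Cav1: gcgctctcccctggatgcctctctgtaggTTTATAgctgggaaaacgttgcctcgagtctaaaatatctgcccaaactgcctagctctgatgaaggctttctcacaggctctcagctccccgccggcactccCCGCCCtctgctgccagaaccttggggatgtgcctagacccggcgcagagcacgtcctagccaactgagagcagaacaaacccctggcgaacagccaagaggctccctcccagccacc
Cav2: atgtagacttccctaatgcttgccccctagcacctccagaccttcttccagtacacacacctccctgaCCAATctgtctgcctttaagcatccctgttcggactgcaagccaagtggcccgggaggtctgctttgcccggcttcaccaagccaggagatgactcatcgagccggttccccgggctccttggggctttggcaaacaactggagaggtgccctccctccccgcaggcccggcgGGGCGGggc
Cav3: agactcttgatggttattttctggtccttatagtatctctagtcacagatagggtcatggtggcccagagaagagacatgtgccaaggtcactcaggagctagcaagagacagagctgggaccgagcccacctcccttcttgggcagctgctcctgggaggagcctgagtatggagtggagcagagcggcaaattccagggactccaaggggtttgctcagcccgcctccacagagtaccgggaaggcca

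The Cav1 window held 1 GC box and 1 TATA box, the Cav2 window 1 GC box and 1 CCAAT box, and the Cav3 window none of the 4 motifs. Among 32851 windows of the same length, 32.7% held a GC box, 33.8% a CCAAT box, 12.4% a TATA box and 25.7% an ETS core. These matches are letters in a window, and nothing about binding follows from them. Their relation to the levels was not tested. Of the 7 members, 5 had a window in the table, and those of Cavin1 and Cavin2 are not shown. Cavin3 and Plvap had no window.

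Levels are given as log2 signal, and each was tested against a detection level of 100, which is 6.64 on that scale. Means carry the SD of the 3 arrays (n = 3), and intervals are 95% intervals of the fitted mean. Of the 7 members, limma called 4 above the level (Cav1, Cav2, Cavin2, Cavin3) and 3 below it (Cav3, Cavin1, Plvap). Over all 21789 probe sets, 15.8% were called above and 72.5% below. The median of the 7 means was 7.12, against 5.04 over all probe sets. Probes differ in how strongly they bind, so the levels of different genes are not ranked against each other.

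**Figure D1:**
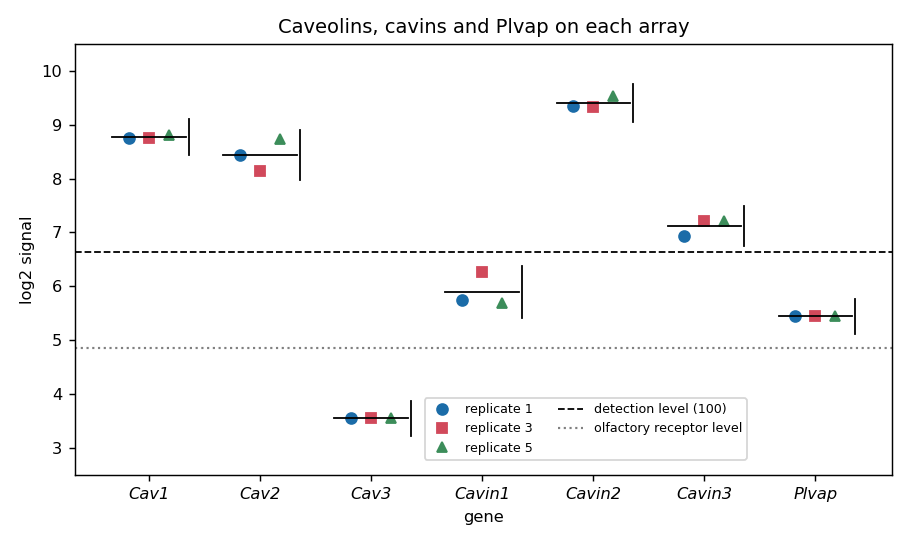
Log2 signal (vertical axis) of each member on replicates 1, 3 and 5, with the mean (horizontal bar) and its 95% interval (vertical line), the detection level of 100 (dashed, 6.64) and the olfactory receptor level (dotted, 4.85). Cav1, Cav2, Cavin2 and Cavin3 lie above the dashed line on every array, and Cav3 lies under both lines.

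The caveolins of endothelium were measured well above the level and the muscle form far below it. Cav1, which encodes the main coat protein of endothelial caveolae, had 8.75, 8.75 and 8.81 on replicates 1, 3 and 5. These values lie within 1.04-fold of each other, but those of replicates 1 and 3 are tied. The small SD is therefore no measure of how closely the arrays agree. The mean of 8.77 ± 0.03 was 4.37-fold above the level (interval 8.44 to 9.10, adjusted p = 0.000136). Cav2, whose protein depends on caveolin 1 to reach the surface, had 8.44, 8.14 and 8.73. Replicate 3 was the lowest and replicate 5 the highest, 1.51-fold apart, and every array was above the level. The mean of 8.44 ± 0.30 was 3.47-fold above it (interval 7.97 to 8.90, adjusted p = 0.000676).

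Cav3 had 3.56 on replicates 1 and 3 and 3.55 on replicate 5. Its mean of 3.55 ± 0.005 was below the level of 100 (interval 3.23 to 3.88, adjusted p = 6.94e-05). The mean also lay under the level of olfactory receptor genes (4.85), so no fold is given. The value on replicate 1 was carried by 306 other probe sets of that array, and that on replicate 3 by 301. Striated muscle markers, whose cells use Cav3, were all called below the level (8 of 8), as were 72.5% of all probe sets. Cavin4, the muscle cavin, which is not a member, had 3.56 on each array. That is the value Cav3 shares on replicates 1 and 3, so the 2 genes give 1 common low value rather than separate readings.

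The cavins were split. Cavin2, also known as serum deprivation response protein, which helps to bend the caveolar membrane, had 9.35, 9.33 and 9.53. All arrays were close together and far above the level, with a mean of 9.40 ± 0.11, 6.77-fold above it (interval 9.05 to 9.75, adjusted p = 8.82e-05). Cavin3, which binds protein kinase C delta, had 6.93 on replicate 1 and 7.21 on the other arrays. Each value was above the level, but by a small step, 0.47 log2 in the mean of 7.12 ± 0.17 (interval 6.74 to 7.49, adjusted p = 0.029). The call of Cavin3 was lost without replicate 5 (adjusted p = 0.0678, with 14.9% of all probe sets called above) and with a floor under the variances (adjusted p = 0.0572, with 14.8% above).

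Cavin1, the cavin without which caveolae do not form, was below the level on every array. It had 5.75, 6.26 and 5.68, with replicate 3 the highest and 0.58 log2 over the lowest. The level was 1.68-fold above the mean of 5.90 ± 0.32 (interval 5.41 to 6.38, adjusted p = 0.0154). Without replicate 1 that call was lost (adjusted p = 0.0515, with 71.4% of all probe sets called below), and without replicate 3 it held (adjusted p = 0.00237). Its single probe set gives no second reading of the gene.

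Plvap had 5.45 on each of the 3 arrays. The level was 2.29-fold above this value (interval 5.12 to 5.77, adjusted p = 0.000784). The measured SD was 0, and the interval rests on the spread of other probe sets. The very same value was carried by 62, 42 and 59 other probe sets on replicates 1, 3 and 5. Among them was the probe set of Tnnt3, a troponin gene of fast skeletal muscle, with 5.45 on each array. Such ties were common among low values. Of the 17153 probe sets with a mean under the level, 62.7% had 1 value on all arrays and 45.4% shared their value with at least 40 others of the same array, averaged over the arrays. Of the 4636 at or above it, the shares were 22.5% and 0.0216%. In bulk RNA, a low value cannot tell few Plvap-expressing cells from little Plvap RNA in each cell.

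A second level was taken from the 1035 olfactory receptor probe sets, genes that kidney endothelium is not known to use. Their 95th percentile was 4.85, or 28.9 on the linear scale. Against it 6 members were called above and 1 below, Cav3 (adjusted p = 0.00096), while 44.4% of all probe sets were above and 36.2% below. Plvap, 0.59 log2 above that level, and Cavin1, 1.04 log2 above it, thus turned from below to above (adjusted p = 0.0107 and 0.00619). Markers of cell types that the sort did not aim at were called above this level too, 12 of 39. Of the 39, 15 were below and 12 neither, beside the 44.4% above and 36.2% below over all probe sets. Those above included 4 of 8 striated muscle markers, Ckm, Acta1, Myod1 and Tnnt3. Of the same list Actn2, Ttn and Myl2 were below and Myog was called neither. Whether some such cells were carried along was not tested. A call above the olfactory receptor level therefore does not set Plvap or Cavin1 apart from these 4 muscle genes on these arrays.

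**Figure D2:**
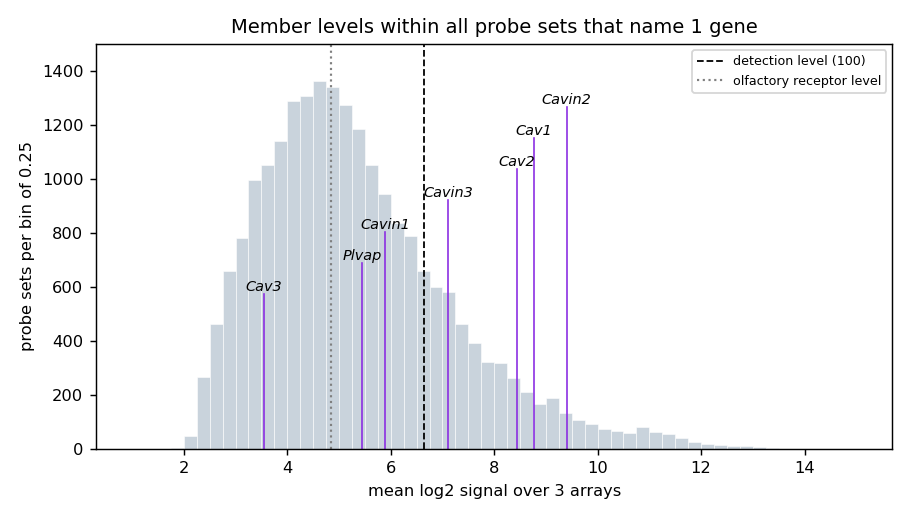
Number of probe sets per bin of 0.25 (vertical axis) by mean log2 signal over 3 arrays (horizontal axis) for the 21789 probe sets that name 1 gene, with each member at its mean (purple lines, whose heights only separate the names). Plvap and Cavin1 fall between the olfactory receptor level (dotted, 4.85) and the detection level (dashed, 6.64), in the bulk of the distribution.

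The members also differed in how far their arrays lay apart. Among the 4406 probe sets with 3 distinct values, the median SD was 0.301. The SDs of Cav2 and Cavin1, at percentiles 49.3 and 52.3 of those, were near this middle, whereas Cavin2 varied less (SD 0.11). Cav1, Cav3, Cavin3 and Plvap are not among the 4406, since each had the same value on at least 2 arrays.

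The labelled cell type was checked against its markers. Among them, Tek is no independent check, because the cells were sorted on fluorescence driven by its promoter. All 12 endothelial markers were called above the level, beside 15.8% of all probe sets. They ran from Esam, a junction protein gene, at 7.46 ± 0.10 to Emcn, which encodes the sialomucin endomucin, at 12.54 ± 0.42. The receptor genes Tek at 10.65 ± 0.43, Kdr at 10.51 ± 0.87 and Tie1 at 7.63 ± 0.05 were among them. So were the adhesion genes Pecam1 at 10.26 ± 0.21, Cdh5 at 10.75 ± 0.32 and Icam2 at 9.31 ± 0.27. Eng, a TGF-beta co-receptor gene, was at 9.39 ± 0.53 and the matrix gene Egfl7 at 9.41 ± 0.20. The ETS factors Erg and Ets1 were at 8.59 ± 0.09 and at 7.81 on each array.

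Of 39 measured markers of other cell types, limma called 0 above and 38 below, beside 15.8% above and 72.5% below over all probe sets. At an unadjusted p under 0.05, or with limma's plain prior, 0 of the 39 were above. The remaining marker was Adipor2 of the adipocyte list, a receptor that many cells use, at 6.02 ± 0.56. The mean log2 value of the 39 was 4.74, 4.72 and 4.66 on replicates 1, 3 and 5. Smooth muscle, mesangial and pericyte cells also use Cavin1 and Cav1, and all 10 of their markers were below, beside the same 72.5%. Acta2, smooth muscle actin, was at 5.21 and Myh11, smooth muscle myosin, at 4.82, each on every array. The list had a mean of 4.72, 4.53 and 4.54 on replicates 1, 3 and 5. Its highest value was 6.08, of Itga8 on replicate 1. The first genes of the other lists were also below, Ckm at 6.11 and Acta1 at 5.30 ± 0.10 for striated muscle, Adipoq at 2.97 ± 0.12 and Plin1 at 5.70 for adipocytes, and Nphs1 at 5.47 for podocytes. Slc34a1 at 5.37 and Lrp2 at 4.33 for tubules and Ptprc at 4.77 ± 0.18 and Cd68 at 5.29 ± 0.03 for leukocytes completed them.

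**Figure D3:**
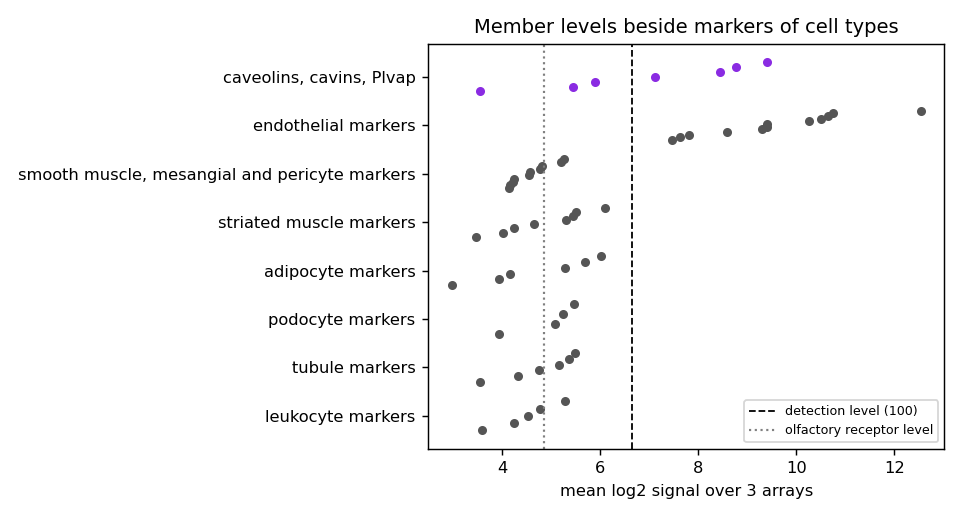
Mean log2 signal over 3 arrays (horizontal axis) of each gene (points) in the member list and in 7 lists of cell type markers (rows), with the detection level (dashed) and the olfactory receptor level (dotted). The 12 endothelial markers lie to the right of the dashed line, and the 39 markers of other cell types lie to its left.

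Replicate 3 was the lowest or the highest array for part of these genes. Endothelial markers were lowest on it for 7 of 12 and highest on it for 0 of 12. Their list medians were 9.33, 9.25 and 9.79 on replicates 1, 3 and 5. A median over different genes does not show which array lay furthest from the others. How many of all probe sets were lowest on replicate 3 was not counted, so the order cannot be called particular to these markers. Of the members, Cav2 and Cavin2 were lowest on replicate 3 and Cavin1 was highest on it. For Cavin2 the step was small, with 9.33 on replicate 3 against 9.35 on replicate 1. The smooth muscle, mesangial and pericyte markers had medians of 4.57, 4.53 and 4.57. The part of these shifts in the member levels was not tested. Without replicate 3, limma still called 4 members above and 3 below.

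Caveolae work with proteins that hold their neck, cut them from the membrane or bring them back. Among 15 such genes with a median of 6.67, limma called 5 above, 6 below and 4 neither, beside the 15.8% above and 72.5% below over all probe sets. Ehd3 and Ehd4, ATPases of membrane recycling, had means of 10.37 ± 0.77 and 8.17 ± 0.56. Ehd3 had 10.60, 9.51 and 11.00 on replicates 1, 3 and 5, with replicate 3 lowest, and Ehd4 had 7.87, 8.81 and 7.83, with replicate 3 highest. Ehd2, the family member known at the caveolar neck, had 6.41, 6.63 and 5.12. No array of Ehd2 reached 6.64, yet its spread was wide and it was called neither (6.06 ± 0.82, adjusted p = 0.183). Ehd1 was below at 5.96 ± 0.05. The membrane-curving gene Pacsin2 was above at 7.15 on each array, Dnm2, the ubiquitous dynamin that cuts vesicles free, at 8.18 ± 0.09, and Snap23, a membrane fusion gene, at 10.70 ± 0.90.

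The other genes of this list were called below or neither. The forms known from nerve or muscle were below, Pacsin1 at 4.83, Pacsin3 at 4.55 and Cavin4 at 3.56 on each array, as was Itsn1, an endocytic scaffold gene, at 5.34. Dnm1, the dynamin of neurons, had 4.79, 6.38 and 4.79, and its call below (adjusted p = 0.0318) was lost without replicate 1 or without replicate 5 (adjusted p = 0.115 and 0.116). Besides Ehd2, Dnm3 at 6.81, the actin crosslinker gene Flna at 6.67 and Rab5a, an early endosome GTPase gene, at 6.71 ± 0.08 were called neither.

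Among 8 scaffold genes of other membrane domains, 1 was called above, 4 below and 3 neither, beside 15.8% above and 72.5% below over all probe sets. The median of the 8 was 5.66, against 5.04 over all. Anxa2, a calcium-dependent membrane binder, was at 9.90 on each array. Flot1 and Flot2 encode the flotillins, which form domains apart from caveolae. Flot1 was called neither at 6.53 ± 0.12 and Flot2 was below at 4.50. Stoml1 at 5.48 and the endoplasmic reticulum genes Erlin1 at 5.45 ± 0.01 and Erlin2 at 5.36 ± 0.40 were also below. Stom and the mitochondrial Stoml2 were called neither, at 5.84 ± 0.88 and 6.42, and Stom was below without replicate 3 (adjusted p = 0.0021), its highest array with 6.83.

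**Figure D4:**
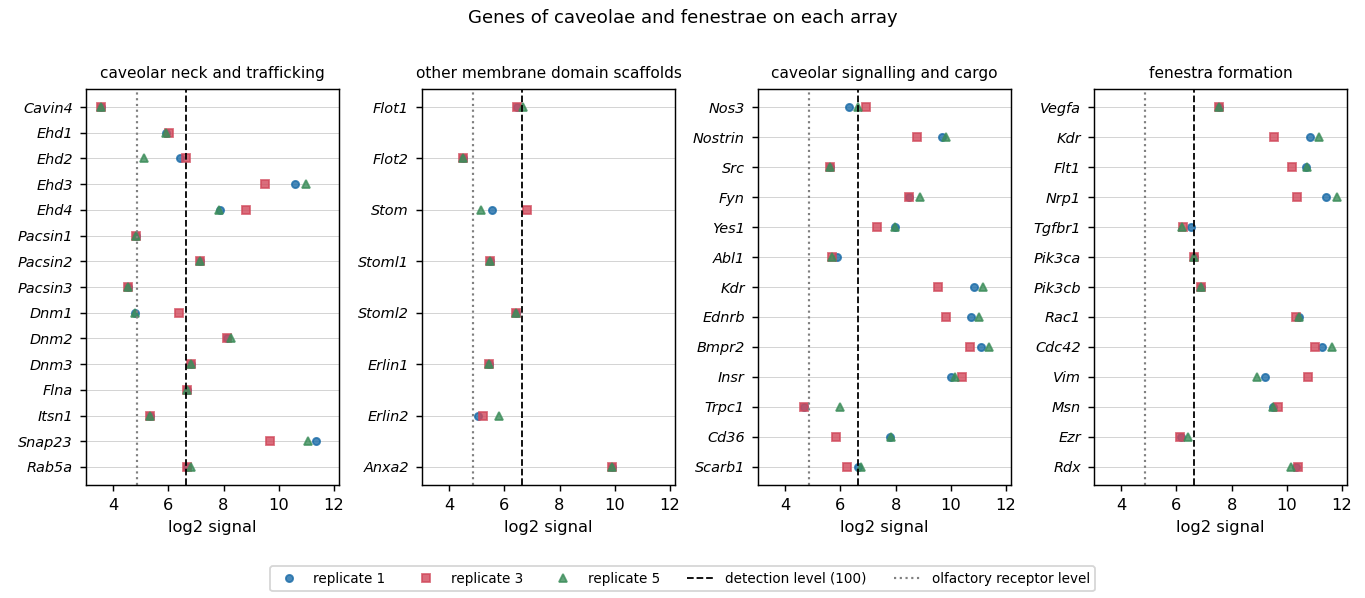
Log2 signal (horizontal axis) on replicates 1, 3 and 5 for every gene (rows) of the 4 lists of caveolar and fenestral genes, with the detection level (dashed, 6.64) and the olfactory receptor level (dotted, 4.85). Ehd3, Kdr, Nrp1 and Cd36 are lowest on replicate 3, while Ehd4, Dnm1 and Vim are highest on it.

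Signalling proteins and cargo found in endothelial caveolae were above the level in 7 of 13 genes, below it in 3 and called neither in 3, beside 15.8% above and 72.5% below over all probe sets. Their median was 7.76. Nostrin, whose product carries nitric oxide synthase from the membrane, had 9.67, 8.77 and 9.83 (mean 9.42 ± 0.57). Nos3, the synthase that caveolin 1 binds, had 6.31, 6.93 and 6.63 and lay at the level (6.62 ± 0.31, adjusted p = 0.909). The receptor genes Bmpr2 at 11.06 ± 0.34, Ednrb at 10.53 ± 0.63, Kdr at 10.51 ± 0.87 and Insr at 10.20 ± 0.19 were above. Insr has 2 probe sets, of which the higher is given, and the lower was also called above (adjusted p = 0.0333). Among the kinases, Fyn at 8.61 ± 0.23 and Yes1 at 7.76 ± 0.37 were above, while Src at 5.63 on each array and Abl1 at 5.75 ± 0.10 were below. The cation channel gene Trpc1 was below at 5.12 ± 0.75.

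The lipid receptor genes of this list were called neither. Scarb1, the receptor for high density lipoprotein, was at 6.53 ± 0.27. Cd36, which takes up fatty acids, had 7.80, 5.85 and 7.84, with only replicate 3 under the level (7.16 ± 1.14, adjusted p = 0.355). Without replicate 3 Cd36 was called above (adjusted p = 0.00111).

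Genes of fenestra formation were mostly above the level, in cells where Plvap was below it. Of 13 genes 9 were above, 1 below and 3 neither, against the same 15.8% and 72.5% over all probe sets, and the median was 9.64. Vegfa, the factor that induces fenestrae, was at 7.55 on each array. Its receptors and co-receptor were high, with Flt1 at 10.54 ± 0.29, Nrp1 at 11.21 ± 0.74 and Kdr, which the previous list also holds. Nrp1 had 11.43, 10.38 and 11.81, and Kdr 10.83, 9.53 and 11.18, both lowest on replicate 3 and far above the level on every array.

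The cytoskeletal genes of the list were above the level with 1 exception. The GTPase genes Cdc42 and Rac1 were at 11.31 ± 0.30 and 10.42 ± 0.07. Rdx and Msn, which link actin to the membrane, were at 10.30 ± 0.13 and 9.56 ± 0.10, and the intermediate filament gene Vim at 9.64 ± 1.00, highest on replicate 3 with 10.78. The exception, Ezr, a relative of Rdx and Msn, was called below at 6.24 ± 0.17 (adjusted p = 0.0466), a call lost without replicate 1 or without replicate 3 (adjusted p = 0.105 and 0.0697). Tgfbr1 at 6.32 ± 0.17, Pik3ca at 6.65 and Pik3cb at 6.91 were called neither, and without replicate 1 Tgfbr1 was called below (adjusted p = 0.0466).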

How the data were processed

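RNA of sorted glomerular endothelial cells was amplified in 1 round and measured on 3 arrays of the Affymetrix Mouse Gene 1.0 ST type. The authors deposited log2 signals per probe set. The submitters' notes name Affymetrix Expression Console, and the study names RMA for its own analysis. The version, and the set of arrays normalized as one, are not given in the sources used here. The scale therefore need not be that of the study's raw filter of 100, the number taken here as detection level.

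Gene names came from GEO's platform annotation, which can be old, and all 7 member identifiers matched RefSeq. Of 35557 probe sets, 21789 name 1 gene, 1621 several (none of these a member) and 12147 are unnamed. The mean log2 value was compared with log2 of 100, two-sided, with limma 3.58.1 (R 4.3.3) in an intercept-only fit, with Benjamini-Hochberg adjustment over the 21789 and a threshold of 0.05. Since 54.1% of these had 1 value on all arrays (within 1e-09), the variance prior came from the 4406 with 3 distinct values (prior SD 0.288, 2.03 degrees of freedom). Script and fit were tested on simulated data. For a listed gene with several probe sets the highest was used.

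The members, lists and tests were chosen with earlier results of these data known. All members, the first 4 genes of each pathway list, the first 2 of each marker list and every listed gene called above are named. Tnnt3, Myod1, Itga8 and Adipor2, and genes called below or neither outside this rule, were chosen after their values were seen. Some listed genes are not reported here. The number of arrays limits the precision.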

Additional observations from a re-analysis of the deposited data

How the results depend on the processing

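Of 63 repeats of a member call under another setting, 58 kept the direction and side of the threshold. The alternative that takes the lowest probe set of a gene is counted among them. It repeats the main fit for every member, because each member has 1 probe set, and so could not change a call. Cav1, Cav2 and Cavin2 stayed above and Cav3 below in all 9 alternatives. The olfactory receptor level reversed Cavin1 and Plvap to above (adjusted p = 0.00619 and 0.0107), leaving 1 member below. It also gave 11 above and 1 below among neck and trafficking genes, 5 above and 1 below among other scaffolds, 12 above and 0 below among signalling genes, and 0 below among fenestral genes. At the level of 100, the count of fenestral genes below was 2 with limma's plain prior and with arrays centred on a common median, and 0 with the variance floor and over all 35557 probe sets. Without replicates 1, 3 or 5 it was between 0 and 1. In each of these fits where limma called 0 below, 0 were also below at an unadjusted p under 0.05. Without 1 array, between 3 and 4 members were above and between 2 and 3 below. Over all 21789 probe sets the olfactory receptor level gave 9680 above and 7889 below, against 3451 and 15803 at 100. The causes were not tested. No paired analysis was possible because there is only 1 group. A level under 100 does not show that a gene is silent.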
